A study of Homo sapiens with 32 samples.

Results

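MYC and 41 genes of ribosome biogenesis, 42 of the 23073 genes in the expression table, were followed in 2 human acute myeloid leukaemia lines treated with inhibitors of the histone demethylase KDM1A. The genes were chosen by symbol: MYC, 6 genes of RNA polymerase I and rDNA transcription, 6 proteins of small nucleolar ribonucleoproteins (snoRNPs), 12 factors of small subunit assembly, 13 of large subunit assembly and 4 other nucleolar proteins. They and the lists set beside them were chosen with earlier results of these data known. Shares of members against all genes are therefore a description and not an independent test. Each of the 42 passed the filter on low values (at least 1 FPKM in at least 2 libraries) and was among the 11890 genes that did. FPKM, fragments per kilobase of transcript and per unit of mapped reads, is a level scaled by gene length and library size.

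MYC is a transcription factor that binds the E-box CACGTG with its partner MAX and drives growth genes, among them those that build ribosomes. RNA polymerase I transcribes the rRNA precursor in the nucleolus, snoRNPs modify it, and large sets of assembly factors fold, cut and export the small and the large subunit. Ribosome production takes up a large share of a dividing cell's effort, and high MYC with active nucleoli is common in acute leukaemia. KDM1A takes methyl groups off histones at enhancers and promoters, and it helps to hold leukaemic blasts in an immature state.

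Kasumi-1 and SKNO-1 are established lines of acute myeloid leukaemia that carry the RUNX1-RUNX1T1 fusion. The medium was RPMI, with 20% calf serum for Kasumi-1 and with 10% serum plus 10 ng/mL GM-CSF for SKNO-1. Cells were given 0.1% DMSO, or 1 µM of RN-1 (an irreversible KDM1A inhibitor), GSK690 (a reversible one) or GSK690* (its isomer, described as inactive), for 24 or 72 h. For SKNO-1 the protocol gives 4 days in place of the 72 h of the titles. Every combination of line, time and agent has 2 biological replicates, which makes 16 groups and 32 libraries, and RN-1 and GSK690 were set against DMSO and GSK690* in each of the 4 sets of line and time. No genotype was altered. The p-values measure the spread between these cultures, which the series describes as biological replicates. Read counts were not used here, so depth is unknown. FPKM summed to 332648 to 395945 per library, and replicates had a Pearson r across genes of 0.995 to 0.998. A table of the authors gives the opposite cell line for the 16 libraries of 72 h. By the labels' titles, which were followed, these correlated at 0.990 to 0.994 with the 24 h libraries of their own line and at 0.944 to 0.952 with those of the other. RUNX1T1, RUNX1, KIT, MPO and CD33 were present in every library of both lines, at 18.1 FPKM (CD33 in Kasumi-1) or more. CD34 reached 63.9 to 245 FPKM in Kasumi-1 but 0.117 to 4.64 in SKNO-1, controls and inhibitor libraries together. Markers of erythroid cells summed to at most 0.307 FPKM, of T and NK cells to at most 2.94 and of B cells to at most 4.51. Genes of adherent cells summed to 61.2 to 84.0 in Kasumi-1, nearly all of it EPCAM, with overlapping ranges on both sides, and to at most 1.65 in SKNO-1. Libraries of 24 h and 72 h carry different name prefixes, so time and library series cannot be told apart. Each comparison of agents lies within a set. In SKNO-1 at 72 h, however, DMSO replicate 1 and RN-1 replicate 1 have the prefix CM and the other libraries CP. Comparisons of GSK690* with DMSO and of RN-1 with GSK690 there partly cross prefixes. Kasumi-1 at 72 h is all CM, so line and prefix are partly mixed at 72 h.

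Promoter windows are shown for the members with the lowest mean change over the 4 sets, 4 with a CACGTG and 2 without, because this is the motif that MYC and MAX bind. RefSeq windows (GRCh38.p14, 250 bases before to 50 after the start) matched 33 of the 42 members. The 9 without one are MYC, NOLC1, NOP58, BOP1, DDX18, RRP1B, TCOF1, RRP12 and RRS1. Of the 33, 16 (48.5%) held CACGTG, a palindrome that reads alike on both strands, in at least 1 window, against 12.8% of the 8955 tested genes with a window and 8.78% of all 27303 genes with one. The 16 matches began between 64 bases before and 35 bases after the start, and 12 began after it. The windows lie at chr4:4289972-4290271 (reverse strand) for LYAR, chr12:101279855-101280154 (forward strand) for UTP20, chr1:19251555-19251854 (forward strand) for MRTO4, chr4:109815512-109815811 (forward strand) for GAR1, chr2:86105837-86106136 (reverse strand) for POLR1A and chr5:73565493-73565792 (forward strand) for UTP15. Each is written 5′ to 3′ along its gene, with the CACGTG in capitals.
LYAR: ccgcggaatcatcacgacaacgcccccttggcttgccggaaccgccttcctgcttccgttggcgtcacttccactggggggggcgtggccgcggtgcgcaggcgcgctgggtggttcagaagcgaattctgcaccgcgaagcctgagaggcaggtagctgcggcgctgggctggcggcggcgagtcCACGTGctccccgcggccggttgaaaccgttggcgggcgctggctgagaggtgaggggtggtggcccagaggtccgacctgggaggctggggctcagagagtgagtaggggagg
UTP20: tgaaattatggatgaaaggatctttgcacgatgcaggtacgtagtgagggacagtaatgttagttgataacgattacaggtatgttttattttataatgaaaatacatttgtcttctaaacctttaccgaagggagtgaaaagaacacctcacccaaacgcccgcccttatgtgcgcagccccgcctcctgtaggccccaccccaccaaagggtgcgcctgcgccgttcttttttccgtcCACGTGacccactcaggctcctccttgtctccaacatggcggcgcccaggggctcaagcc
MRTO4: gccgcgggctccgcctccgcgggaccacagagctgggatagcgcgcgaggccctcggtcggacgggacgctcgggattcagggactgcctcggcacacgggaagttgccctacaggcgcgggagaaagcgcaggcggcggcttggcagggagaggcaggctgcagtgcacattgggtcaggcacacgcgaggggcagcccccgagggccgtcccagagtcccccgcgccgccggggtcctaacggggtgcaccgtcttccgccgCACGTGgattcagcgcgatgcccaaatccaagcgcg
GAR1: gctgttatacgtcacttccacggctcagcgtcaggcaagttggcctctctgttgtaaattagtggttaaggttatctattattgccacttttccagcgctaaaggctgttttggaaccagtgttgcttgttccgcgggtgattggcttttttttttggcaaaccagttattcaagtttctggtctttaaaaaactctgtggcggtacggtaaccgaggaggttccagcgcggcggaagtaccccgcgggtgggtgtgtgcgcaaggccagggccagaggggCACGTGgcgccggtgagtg
POLR1A: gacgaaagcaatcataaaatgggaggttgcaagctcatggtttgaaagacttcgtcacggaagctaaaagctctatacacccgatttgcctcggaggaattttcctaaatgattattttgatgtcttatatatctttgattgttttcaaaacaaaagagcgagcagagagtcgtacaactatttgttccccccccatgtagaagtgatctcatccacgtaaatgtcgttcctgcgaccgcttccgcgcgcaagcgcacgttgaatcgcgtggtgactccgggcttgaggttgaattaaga
UTP15: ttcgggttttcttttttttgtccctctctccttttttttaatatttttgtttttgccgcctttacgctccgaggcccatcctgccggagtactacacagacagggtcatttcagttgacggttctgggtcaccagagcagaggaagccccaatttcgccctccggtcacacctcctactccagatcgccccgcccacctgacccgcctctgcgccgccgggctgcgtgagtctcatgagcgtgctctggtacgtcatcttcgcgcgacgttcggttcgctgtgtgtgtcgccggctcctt

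In these 6 windows the motif begins 64 bases before the start in LYAR, 10 before it in UTP20, 14 after it in MRTO4 and 31 after it in GAR1. Members with and without the motif were counted side by side, with no test of the difference. In Kasumi-1, 11 of 16 with it and 9 of 17 without it were lower with the inhibitors at 24 h, and 10 of 16 and 10 of 17 at 72 h. In SKNO-1 the counts were 3 of 16 and 1 of 17 at 24 h, and 3 of 16 and 2 of 17 at 72 h. Median log2 changes with and without it were -0.24 and -0.30, -0.27 and -0.29, -0.14 and -0.14, and -0.20 and -0.16 in the same order of sets. A match is a stretch of letters, and binding was not measured here.

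With the KDM1A inhibitors most of these genes had modestly lower values, and more of them passed the test in Kasumi-1 than in SKNO-1. A difference in effect between the lines, tested directly in the same fit, was called for 0 members at either time. In Kasumi-1, 25 of the 42 were lower at 24 h and 25 at 72 h (limma on log2(FPKM + 1), adjusted p under 0.05), where 11.2% and 12.7% of all tested genes were lower. In SKNO-1, 5 were lower at 24 h and 7 at 72 h, against 3.44% and 4.16% of all genes. RRP1B was the member called higher, in Kasumi-1 at both times and in SKNO-1 at 72 h, where 9.69%, 13.0% and 6.91% of all genes were higher. No member was called higher in SKNO-1 at 24 h (background 5.64%). The median log2 change of the 42 was -0.26 and -0.29 in Kasumi-1 (24 and 72 h) and -0.15 and -0.20 in SKNO-1, beside medians of -0.01, -0.02, -0.02 and -0.02 over all genes tested. In each set 39 of the 42 had a change below 0, and 37 were below 0 in all 4 sets. The exceptions were RRP1B, NOB1, NPM1, PPAN and NOP2.

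LYAR and NOP14 were lower in all 4 sets. Another 8 were lower in 3 sets: POLR1A, RRP12, UTP15, NOP16, NOLC1, GAR1, DDX18 and DDX21. 10 members were lower in 2 sets, 10 in 1 and 12 in none. The sets share lines and agents. How many of all genes were lower in as many sets, or below 0 in all 4, was not counted. The 4 inhibitor libraries all lay under the 4 controls for 29 members in Kasumi-1 at 24 h (18.2% of all genes), 19 at 72 h (13.1%), 12 in SKNO-1 at 24 h (8.4%) and 9 at 72 h (6.69%). In whole cultures, fewer cells that make an RNA and less of it per cell cannot be told apart.

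Counts of lower members moved with single libraries. Here and below, counts without 1 library are given without the share over all genes in the same fit. Such moves cannot be read as particular to these genes. In Kasumi-1 at 24 h, 25 became 14 without RN-1 replicate 2 or the first replicate of either control, and 13 without GSK690 replicate 2, while at 72 h the count stayed within 1.5 times. In SKNO-1 at 24 h, 5 became 0 without either DMSO library, RN-1 replicate 1 or GSK690 replicate 1, 1 without either GSK690* library, and 8 without GSK690 replicate 2. At 72 h there, 7 became 1 without DMSO replicate 1 or GSK690* replicate 1, 2 without RN-1 replicate 2 or GSK690 replicate 2, 3 without GSK690 replicate 1, and 15 without DMSO replicate 2. Of the 65 calls in the 4 sets, 30 passed in each fit without 1 library: 11 of 26 in Kasumi-1 at 24 h, 18 of 26 at 72 h, 0 of 5 in SKNO-1 at 24 h and 1 of 8 (NOP14) at 72 h. Libraries with the same replicate number deviated together in most sets, and with a term for that number (a replicate block) 12 members were lower in SKNO-1 at 24 h and 20 at 72 h, where 9.33% and 11.2% of all genes were. The block added calls for 4, 6, 8 and 13 members over the 4 sets and took 0 away. Calls over all genes rose with the block too. In SKNO-1 the share lower went from 3.44% to 9.33% at 24 h and from 4.16% to 11.2% at 72 h. Shares with the block are not given here for Kasumi-1 or for higher genes, so those added calls have no background. Added in Kasumi-1 were MYBBP1A, MYC, NHP2 and WDR75 at 24 h and FBL, GNL2, MRTO4, NCL, NHP2 and PPAN at 72 h, all lower. Added in SKNO-1 were DDX18, DKC1, GAR1, HEATR1, NCL, NIP7 and UTP20 at 24 h, lower, with RRP1B, higher (limma, adjusted p = 0.00867). At 72 h there DDX10, DDX21, DKC1, GRWD1, MRTO4, MYC, NCL, NIP7, NOLC1, PES1, POLR1A, RRS1 and UTP20 were added, all lower. The calls given for single genes are those without the block unless it is named.

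**Figure D1:**
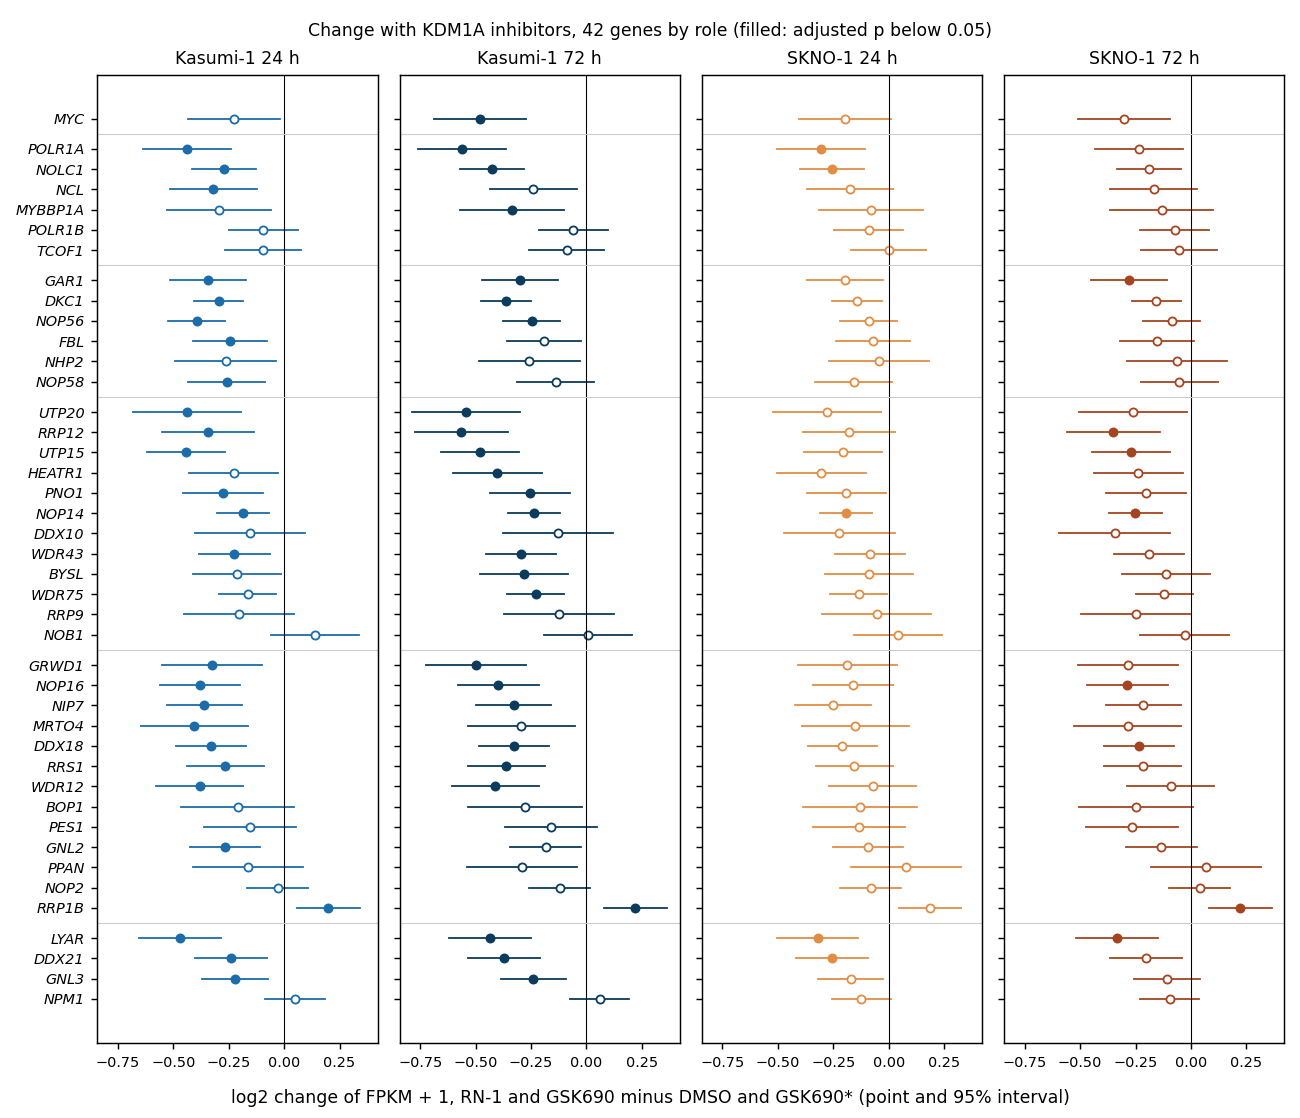
Log2 change of FPKM + 1 with RN-1 and GSK690 against DMSO and GSK690* (x axis, point with 95% interval) for the 42 genes (y axis, grouped as MYC, RNA polymerase I, snoRNP, small subunit, large subunit and other nucleolar genes), 1 panel per set of line and time; filled points have an adjusted p below 0.05. Of the 42 points in each panel 39 lie left of 0, and RRP1B is right of 0 in every panel.

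MYC, the regulator of the group, fell in Kasumi-1 at 72 h. Its levels there were 179 and 182 FPKM with DMSO, 175 and 183 with GSK690*, 151 and 119 with RN-1 and 126 and 120.4 with GSK690. The 4 inhibitor libraries lay under the 4 controls, and MYC fell by 28.1% in mean FPKM, a log2 change of -0.48 ± 0.10 (SE; limma, adjusted p = 0.0013). At 24 h in that line MYC had 209 and 167 FPKM with DMSO, 174 and 175 with GSK690*, 169.8 and 149.7 with RN-1 and 162 and 138 with GSK690. The sides overlapped there, since RN-1 replicate 1 was above DMSO replicate 2, and the log2 change of -0.22 ± 0.10 did not pass (limma, adjusted p = 0.118). In SKNO-1 MYC had 193 and 214 FPKM with DMSO, 208 and 201 with GSK690*, 172 and 184 with RN-1 and 152 and 209 with GSK690 at 24 h. At 72 h MYC had 253 and 297 FPKM with DMSO, 305 and 283 with GSK690*, 206 and 255 with RN-1 and 220.1 and 242 with GSK690. GSK690 replicate 2 lay among the controls at 24 h, and RN-1 replicate 2 was above DMSO replicate 1 at 72 h. The changes of -0.20 ± 0.10 and -0.30 ± 0.10 did not pass (limma, adjusted p = 0.237 and 0.0572). In Kasumi-1 at 72 h the call held in each of the 8 fits without 1 library. With the replicate block MYC also passed in Kasumi-1 at 24 h and in SKNO-1 at 72 h (limma, adjusted p = 0.0448 and 0.0134), and not in SKNO-1 at 24 h (0.102).

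POLR1A, the largest subunit of RNA polymerase I and its catalytic core (ENSG00000068654, chr2:86247338-86333278 in hg19), was lower in 3 of the 4 sets. POLR1A in Kasumi-1 read 13.4 and 14.6 FPKM with DMSO, 14.1 and 12.1 with GSK690*, 9.58 and 9.97 with RN-1 and 9.31 and 10.03 with GSK690 at 24 h. At 72 h POLR1A read 18.6 and 13.8 FPKM with DMSO, 16.7 and 13.5 with GSK690*, 9.32 and 9.96 with RN-1 and 12.3 and 9.44 with GSK690. Every inhibitor library was under every control at both times, with POLR1A down by 28.2% and 34.6% in mean FPKM and log2 changes of -0.44 ± 0.0953 and -0.56 ± 0.0953 (limma, adjusted p = 0.00262 and 0.000168). POLR1A in SKNO-1 read 21.1 and 20.7 FPKM with DMSO, 20.05 and 20.8 with GSK690*, 16.96 and 17.4 with RN-1 and 16.1 and 15.8 with GSK690 at 24 h. At 72 h POLR1A had 27.1 and 21.5 FPKM with DMSO, 25.4 and 21.7 with GSK690*, 21.5 and 20.6 with RN-1 and 19.6 and 18.6 with GSK690. The sides did not overlap at either time, though RN-1 replicate 1 of 72 h (21.51) was barely under DMSO replicate 2 (21.54). The change of -0.30 passed at 24 h (limma, adjusted p = 0.0485, and in 0 of 8 fits without 1 library), and that of -0.24 at 72 h did not (adjusted p = 0.118).

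NOLC1, a chaperone of snoRNPs that also binds RNA polymerase I, fell in Kasumi-1 at both times and in SKNO-1 at 24 h, with log2 changes of -0.27, -0.43 and -0.26 (limma, adjusted p = 0.00796, 0.000108 and 0.0252). These calls passed in 8, 8 and 3 of 8 fits without 1 library. NCL, nucleolin, an abundant nucleolar protein that binds the rRNA precursor, fell by 0.32 at 24 h in Kasumi-1, and MYBBP1A, a nucleolar corepressor, by 0.34 at 72 h. POLR1B, another core subunit of the polymerase, passed in no set, with changes from -0.10 to -0.06. TCOF1, treacle, a cofactor of rDNA transcription (ENSG00000070814, chr5:149737201-149779871 in hg19), had the highest mean change of the 6. TCOF1 in Kasumi-1 measured 29.7 and 25.7 FPKM with DMSO, 25.1 and 25.9 with GSK690*, 24.8 and 24.8 with RN-1 and 26.5 and 23.1 with GSK690 at 24 h. At 72 h TCOF1 measured 35.7 and 30.3 FPKM with DMSO, 33.8 and 32.9 with GSK690*, 34.4 and 26.9 with RN-1 and 33.1 and 30.4 with GSK690. The ranges of both sides overlapped. TCOF1 in SKNO-1 measured 27.97 and 28.02 FPKM with DMSO, 28.2 and 25.9 with GSK690*, 29.1 and 28.02 with RN-1 and 25.4 and 27.6 with GSK690 at 24 h. At 72 h TCOF1 had 35.9 and 37.2 FPKM with DMSO, 43.4 and 35.3 with GSK690*, 39.1 and 35.7 with RN-1 and 38.2 and 33.1 with GSK690. They overlapped again, and log2 changes ran from -0.09 to -0.00059. Of the 6 genes 3 were lower in Kasumi-1 at 24 h, 3 at 72 h, 2 in SKNO-1 at 24 h and 0 at 72 h. Over all genes the shares were 11.2%, 12.7%, 3.44% and 4.16%.

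Of the 6 snoRNP proteins, 5 were lower in Kasumi-1 at 24 h, 3 at 72 h, 0 in SKNO-1 at 24 h and 1 at 72 h (background 11.2%, 12.7%, 3.44% and 4.16%). Box C/D particles methylate rRNA, and their core held FBL, the methyltransferase, with NOP56 and NOP58. NOP56 fell by 0.40 ± 0.0621 at 24 h in Kasumi-1 (limma, adjusted p = 0.000133) and by 0.25 at 72 h, and FBL by 0.25 at 24 h. NOP58 (ENSG00000055044, chr2:203130438-203168389 in hg19) had the highest mean change of the 6. NOP58 in Kasumi-1 gave 113 and 109 FPKM with DMSO, 120.3 and 106 with GSK690*, 101 and 91.1 with RN-1 and 94.04 and 87.5 with GSK690 at 24 h. At 72 h NOP58 gave 119.7 and 96.9 FPKM with DMSO, 119.6 and 103 with GSK690*, 115 and 93.4 with RN-1 and 101 and 89.2 with GSK690. The sides were apart at 24 h, where NOP58 fell by 0.26 (limma, adjusted p = 0.0313), and overlapped at 72 h (-0.14). NOP58 in SKNO-1 gave 61.9 and 56.8 FPKM with DMSO, 56.2 and 57.3 with GSK690*, 50.5 and 52.97 with RN-1 and 49.9 and 54.5 with GSK690 at 24 h. At 72 h NOP58 had 64.7 and 53.1 FPKM with DMSO, 61.8 and 60.6 with GSK690*, 60.3 and 53.8 with RN-1 and 56.7 and 60.2 with GSK690. At 24 h the 4 inhibitor libraries were under the controls but the change of -0.16 did not pass (limma, adjusted p = 0.262), and at 72 h the sides overlapped.

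Box H/ACA particles convert uridine to pseudouridine, and DKC1 is their synthase. DKC1 fell in Kasumi-1 at both times, by 0.30 ± 0.0538 and 0.36 ± 0.0538 on the log2 scale (limma, adjusted p = 0.00055 and 3.9e-05), and this held in each fit without 1 library. GAR1, a core protein of the same particles (ENSG00000109534, chr4:110736665-110745893 in hg19), was lower in 3 sets. GAR1 in Kasumi-1 showed 44.6 and 41.9 FPKM with DMSO, 42.9 and 36.3 with GSK690*, 34.4 and 31.9 with RN-1 and 30.6 and 32.6 with GSK690 at 24 h. At 72 h GAR1 showed 43.9 and 38.5 FPKM with DMSO, 42.5 and 40.2 with GSK690*, 42.4 and 32.5 with RN-1 and 30.3 and 29.5 with GSK690. RN-1 replicate 1 of 72 h lay among the controls, and the other inhibitor libraries of both times lay under them. GAR1 fell by 0.34 and 0.30 (limma, adjusted p = 0.00534 and 0.0106). GAR1 in SKNO-1 showed 50.8 and 51.4 FPKM with DMSO, 50.03 and 52.2 with GSK690*, 40.8 and 45.1 with RN-1 and 40.9 and 51.6 with GSK690 at 24 h. At 72 h GAR1 had 61.5 and 52.3 FPKM with DMSO, 64.2 and 63.3 with GSK690*, 45.8 and 47.4 with RN-1 and 51.2 and 53.5 with GSK690. Single libraries overlapped at each time: GSK690 replicate 2 at 24 h and again at 72 h. The fall of 0.28 at 72 h passed (limma, adjusted p = 0.0325; in 1 of 8 fits without 1 library). NHP2, the remaining H/ACA protein, passed in no set (-0.26, -0.26, -0.04 and -0.06).

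Among the 12 factors of the small subunit, 6 were lower in Kasumi-1 at 24 h, 9 at 72 h, 1 in SKNO-1 at 24 h and 3 at 72 h (background 11.2%, 12.7%, 3.44% and 4.16%). UTP20, a very large scaffold of the small subunit processome (ENSG00000120800, chr12:101673886-101780394 in hg19), had the lowest mean change of them and the lowest level of all 42. UTP20 in Kasumi-1 was at 6.04 and 6.16 FPKM with DMSO, 6.49 and 5.48 with GSK690*, 4.35 and 4.01 with RN-1 and 4.32 and 4.08 with GSK690 at 24 h. At 72 h UTP20 was at 8.25 and 6.09 FPKM with DMSO, 7.31 and 5.41 with GSK690*, 4.26 and 4.43 with RN-1 and 4.54 and 3.92 with GSK690. No library of one side reached the other, and UTP20 fell by 30.6% and 36.6% in mean FPKM (log2 -0.44 ± 0.12 and -0.54 ± 0.12; limma, adjusted p = 0.011 and 0.00177). UTP20 in SKNO-1 was at 6.52 and 6.13 FPKM with DMSO, 6.20 and 6.31 with GSK690*, 4.51 and 5.50 with RN-1 and 5.37 and 4.69 with GSK690 at 24 h. At 72 h UTP20 came to 8.90 and 5.52 FPKM with DMSO, 6.30 and 5.79 with GSK690*, 5.999 and 4.82 with RN-1 and 5.61 and 4.78 with GSK690. The sides were apart at 24 h and overlapped at 72 h, and neither change (-0.28 and -0.26) passed (limma, adjusted p = 0.143 and 0.161).

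RRP12, which takes part in maturation and export of the subunit (ENSG00000052749, chr10:99116114-99161127 in hg19), had the largest fall of any member in a set, at 72 h in Kasumi-1, with POLR1A next. RRP12 in Kasumi-1 had 28.3 and 24.2 FPKM with DMSO, 23.4 and 24.2 with GSK690*, 20.4 and 19.4 with RN-1 and 20.02 and 18.1 with GSK690 at 24 h. At 72 h RRP12 had 36.1 and 29.7 FPKM with DMSO, 33.2 and 30.7 with GSK690*, 27.5 and 18.9 with RN-1 and 21.6 and 19.1 with GSK690. All inhibitor libraries were under the controls, and RRP12 fell by 0.34 ± 0.10 and 0.56 ± 0.10 (limma, adjusted p = 0.0184 and 0.000277). RRP12 in SKNO-1 had 14.5 and 15.1 FPKM with DMSO, 14.3 and 13.2 with GSK690*, 13.4 and 12.3 with RN-1 and 11.4 and 12.9 with GSK690 at 24 h. At 72 h RRP12 had 20.5 and 20.00 FPKM with DMSO, 24.4 and 18.1 with GSK690*, 16.95 and 16.8 with RN-1 and 15.9 and 14.3 with GSK690. At 24 h RN-1 replicate 1 exceeded GSK690* replicate 2 and the change of -0.18 did not pass. At 72 h the sides were apart and RRP12 fell by 0.35 (limma, adjusted p = 0.0267; in 3 of 8 fits without 1 library).

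UTP15, of the subcomplex that joins rDNA transcription to processing (ENSG00000164338, chr5:72861267-72877794 in hg19), was lower in 3 sets. UTP15 in Kasumi-1 had 10.99 and 10.6 FPKM with DMSO, 11.3 and 9.79 with GSK690*, 7.64 and 7.79 with RN-1 and 7.19 and 7.66 with GSK690 at 24 h. At 72 h UTP15 had 12.9 and 9.46 FPKM with DMSO, 11.8 and 9.66 with GSK690*, 7.90 and 8.50 with RN-1 and 6.78 and 6.91 with GSK690. Its libraries did not overlap, and UTP15 fell by 0.44 ± 0.0844 and 0.48 ± 0.0844 (limma, adjusted p = 0.000856 and 0.000236). UTP15 in SKNO-1 had 10.95 and 11.6 FPKM with DMSO, 12.1 and 12.5 with GSK690*, 9.48 and 10.7 with RN-1 and 9.75 and 10.5 with GSK690 at 24 h. At 72 h UTP15 had 14.3 and 12.02 FPKM with DMSO, 12.9 and 12.3 with GSK690*, 11.3 and 10.4 with RN-1 and 9.83 and 10.5 with GSK690. They were apart at both times, and the fall of 0.27 at 72 h passed (limma, adjusted p = 0.0404; in 3 of 8 fits without 1 library) where that of 24 h, -0.21, did not (adjusted p = 0.138). NOP14, another processome protein, had smaller and even falls of 0.19, 0.24, 0.19 and 0.25 in the 4 sets (limma, adjusted p = 0.0243, 0.00425, 0.0375 and 0.00569). Its calls passed in 3, 8, 1 and 8 of 8 fits without 1 library, so those of 24 h rest on single libraries.

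HEATR1, a processome scaffold in the subcomplex of UTP15, fell by 0.40 in Kasumi-1 at 72 h, and WDR43, of the same subcomplex, by 0.22 and 0.29 at 24 and 72 h. PNO1, which guards the end of the maturing rRNA, fell by 0.28 and 0.25 in that line. WDR75 and BYSL fell there at 72 h, by 0.23 and 0.28. DDX10, a helicase, and RRP9, a snoRNP protein of the processome, passed in no set. NOB1, the endonuclease that makes the last cut of small subunit rRNA (ENSG00000141101, chr16:69775769-69788843 in hg19), was the small subunit factor with the highest mean change. NOB1 in Kasumi-1 came to 34.5 and 29.5 FPKM with DMSO, 27.95 and 31.8 with GSK690*, 33.6 and 35.4 with RN-1 and 34.4 and 32.8 with GSK690 at 24 h. At 72 h NOB1 came to 38.6 and 34.9 FPKM with DMSO, 36.8 and 36.3 with GSK690*, 44.9 and 34.1 with RN-1 and 35.3 and 33.96 with GSK690. High and low values were on both sides. NOB1 in SKNO-1 came to 34.4 and 35.01 FPKM with DMSO, 38.6 and 29.5 with GSK690*, 40.2 and 31.7 with RN-1 and 33.6 and 36.1 with GSK690 at 24 h. At 72 h NOB1 had 40.2 and 50.7 FPKM with DMSO, 51.6 and 47.5 with GSK690*, 47.04 and 46.2 with RN-1 and 45.7 and 46.5 with GSK690. The sides overlapped in all 4 sets, and log2 changes were 0.14, 0.01, 0.04 and -0.03, none of which passed (limma, adjusted p = 0.334 to 0.97).

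Of the 13 large subunit factors, 8 were lower in Kasumi-1 at 24 h, 6 at 72 h, 0 in SKNO-1 at 24 h and 2 at 72 h (background 11.2%, 12.7%, 3.44% and 4.16%). GRWD1, a chaperone of ribosomal proteins and histones (ENSG00000105447, chr19:48949029-48960279 in hg19), had the lowest mean change of them. GRWD1 in Kasumi-1 amounted to 18.97 and 19.4 FPKM with DMSO, 15.9 and 18.2 with GSK690*, 15.3 and 15.1 with RN-1 and 13.9 and 12.7 with GSK690 at 24 h. At 72 h GRWD1 amounted to 28.1 and 24.1 FPKM with DMSO, 25.7 and 25.7 with GSK690*, 21.5 and 16.2 with RN-1 and 17.96 and 16.9 with GSK690. The sides were apart, and GRWD1 fell by 0.32 and 0.50 (limma, adjusted p = 0.0373 and 0.00187); the call of 24 h was lost in each of 8 fits without 1 library and that of 72 h was kept in all 8. GRWD1 in SKNO-1 amounted to 18.1 and 17.1 FPKM with DMSO, 17.1 and 14.7 with GSK690*, 17.2 and 13.8 with RN-1 and 14.2 and 13.3 with GSK690 at 24 h. At 72 h GRWD1 had 23.01 and 22.8 FPKM with DMSO, 29.7 and 20.9 with GSK690*, 19.4 and 19.3 with RN-1 and 22.9 and 16.6 with GSK690. The sides overlapped, and -0.19 and -0.28 did not pass (limma, adjusted p = 0.31 and 0.0942).

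NOP16 fell by 0.38, 0.40 and 0.29 in both Kasumi-1 sets and in the later SKNO-1 set, and the helicase DDX18 by 0.33, 0.33 and 0.23 in the same sets. Their Kasumi-1 calls passed in 8 of 8 fits without 1 library. In SKNO-1 NOP16 passed in 3 of 8 and DDX18 in 2 of 8 (with all libraries, limma adjusted p = 0.0367 and 0.0484). NIP7 and RRS1, which act on large subunit precursors, fell at both times in Kasumi-1, NIP7 by 0.36 and 0.33 and RRS1 by 0.27 and 0.36. WDR12, BOP1 and PES1 form the PeBoW complex. WDR12 fell by 0.38 and 0.41 in Kasumi-1, while BOP1 (-0.13 to -0.28) and PES1 (-0.13 to -0.27) passed in no set. MRTO4, which is exchanged for a stalk protein late in assembly, and the GTPase GNL2 fell in Kasumi-1 at 24 h by 0.40 and 0.27. The rRNA methyltransferase NOP2 (-0.12 to 0.04) and PPAN (-0.29 to 0.08) passed in no set.

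RRP1B, a nucleolar protein of the large subunit pathway that also binds chromatin (ENSG00000160208, chr21:45079428-45115958 in hg19), was the exception in direction. RRP1B in Kasumi-1 reached 28.7 and 25.9 FPKM with DMSO, 27.3 and 26.4 with GSK690*, 31.3 and 31.6 with RN-1 and 31.6 and 30.5 with GSK690 at 24 h. At 72 h RRP1B reached 35.6 and 30.3 FPKM with DMSO, 35.1 and 32.1 with GSK690*, 37.03 and 37.5 with RN-1 and 41.2 and 39.98 with GSK690. The inhibitor libraries all lay above the controls, and RRP1B rose by 15.3% and 16.9% in mean FPKM (log2 0.20 ± 0.0677 and 0.22 ± 0.0677; limma, adjusted p = 0.0399 and 0.0198). RRP1B in SKNO-1 reached 34.4 and 32.2 FPKM with DMSO, 37.9 and 33.02 with GSK690*, 40.6 and 35.9 with RN-1 and 42.7 and 37.7 with GSK690 at 24 h. At 72 h RRP1B stood at 40.9 and 37.9 FPKM with DMSO, 41.6 and 39.7 with GSK690*, 49.7 and 44.4 with RN-1 and 48.5 and 45.05 with GSK690. At 24 h GSK690* replicate 1 exceeded RN-1 replicate 2 and GSK690 replicate 2, and 0.19 did not pass (limma, adjusted p = 0.0933). At 72 h the sides were apart and RRP1B rose by 0.22 (adjusted p = 0.0359). The 3 calls passed in 1, 5 and 3 of 8 fits without 1 library. Its paralog RRP1 fell in SKNO-1 at 72 h, by 0.30 (adjusted p = 0.025).

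LYAR, a nucleolar zinc finger protein that promotes rRNA processing and cell growth (ENSG00000145220, chr4:4269427-4291896 in hg19), had the lowest mean change of the 42. LYAR in Kasumi-1 was 38.4 and 33.96 FPKM with DMSO, 36.5 and 34.3 with GSK690*, 26.1 and 24.5 with RN-1 and 25.8 and 25.6 with GSK690 at 24 h. At 72 h LYAR was at 40.7 and 34.8 FPKM with DMSO, 37.8 and 33.5 with GSK690*, 33.1 and 26.4 with RN-1 and 24.8 and 23.7 with GSK690. The sides stayed apart, RN-1 replicate 1 of 72 h being closest to the controls, and LYAR fell by 28.7% and 26.4% in mean FPKM (log2 -0.47 ± 0.0889 and -0.44 ± 0.0889; limma, adjusted p = 0.000768 and 0.00105). LYAR in SKNO-1 was 49.9 and 48.8 FPKM with DMSO, 49.8 and 49.8 with GSK690*, 36.5 and 38.9 with RN-1 and 36.2 and 47.2 with GSK690 at 24 h. At 72 h LYAR came to 65.4 and 52.9 FPKM with DMSO, 63.5 and 59.3 with GSK690*, 50.7 and 44.5 with RN-1 and 44.8 and 50.5 with GSK690. The sides were apart here too, and the falls of 0.32 ± 0.0889 and 0.33 ± 0.0889 passed (limma, adjusted p = 0.027 and 0.0179), in 2 and 4 of 8 fits without 1 library. DDX21, a helicase of RNA polymerase I and II transcription, fell by 0.24, 0.37 and 0.26 in Kasumi-1 at both times and SKNO-1 at 24 h. Its calls passed in 2, 8 and 1 of 8 fits without 1 library. GNL3, nucleostemin, fell by 0.22 and 0.24 in Kasumi-1.

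NPM1, nucleophosmin, an abundant chaperone of the nucleolus (ENSG00000181163, chr5:170814119-170838141 in hg19), passed in no set. NPM1 in Kasumi-1 measured 1096 and 950.4 FPKM with DMSO, 1109 and 1004 with GSK690*, 1130.2 and 1018 with RN-1 and 1092 and 1060.1 with GSK690 at 24 h. At 72 h NPM1 was at 527 and 569 FPKM with DMSO, 579 and 554 with GSK690*, 575 and 575 with RN-1 and 609 and 563 with GSK690. Controls and inhibitor libraries overlapped within each time, and all libraries of 24 h were above all of 72 h. NPM1 in SKNO-1 measured 937 and 895 FPKM with DMSO, 992 and 952 with GSK690*, 807 and 835 with RN-1 and 848 and 983 with GSK690 at 24 h. At 72 h NPM1 had 665 and 580.5 FPKM with DMSO, 626 and 628 with GSK690*, 601 and 556 with RN-1 and 573 and 608 with GSK690. The sides overlapped at both times there. Log2 changes were 0.05, 0.06, -0.12 and -0.10 (limma, adjusted p = 0.25 to 0.649). NPM1 has processed pseudogenes of near-identical sequence, so its FPKM is uncertain.

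Of the 42 loci, 16 overlap another gene of the table, and the library type is not stated in the sources used here, so reads of overlapping genes cannot be told apart. The overlapping gene had the higher median FPKM for 3 of them: LGALS8 for HEATR1, PPP3R1 for PNO1 and HIGD2A for NOP16, none of which passed in any set.

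**Figure D2:**
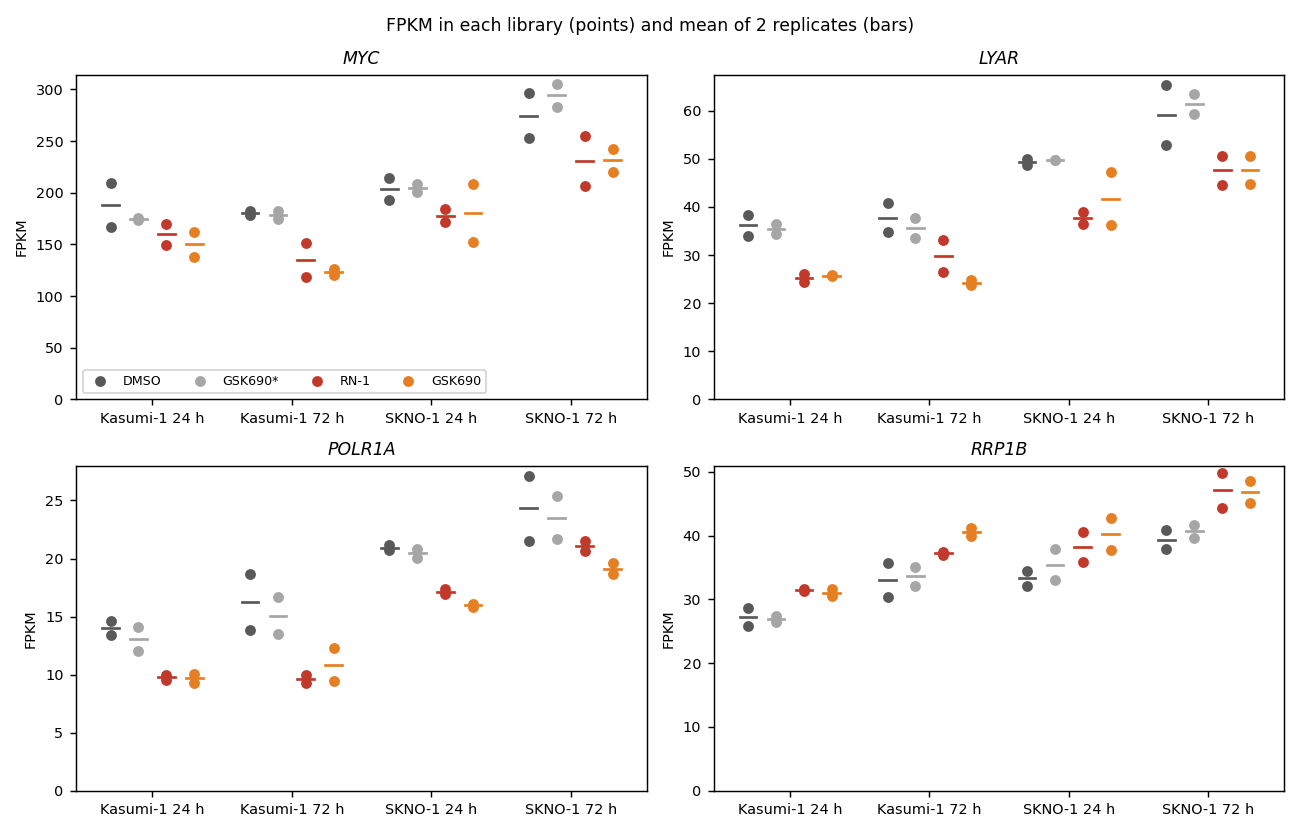
FPKM (y axis, from 0) of MYC, LYAR, POLR1A and RRP1B in each library by set and agent; points are libraries and bars the mean of 2 replicates. In Kasumi-1 at 72 h the inhibitor libraries of MYC, LYAR and POLR1A all lie under the controls, and those of RRP1B all lie above.

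Every inhibitor library lay below the control libraries of its set in the median of the 42, except RN-1 replicate 1 in Kasumi-1 at 72 h. Differences from the control mean of the set had medians of -0.20 and -0.28 (RN-1) and -0.23 and -0.30 (GSK690) in Kasumi-1 at 24 h, and of -0.09, -0.30, -0.32 and -0.42 at 72 h. In SKNO-1 they were -0.19, -0.18, -0.22 and -0.06 at 24 h, and -0.10, -0.22, -0.19 and -0.20 at 72 h. RN-1 replicate 1 in Kasumi-1 at 72 h (25 of 42 below the control mean) and GSK690 replicate 2 in SKNO-1 at 24 h (31 of 42) showed the smallest shifts. In the other 14 inhibitor libraries, 32 to 40 members were below it. Controls ran from -0.09 to 0.11, and DMSO replicate 1 was the highest control in Kasumi-1 at both times. Medians over all genes tested stayed between -0.07 and 0.05 in every library.

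**Figure D3:**
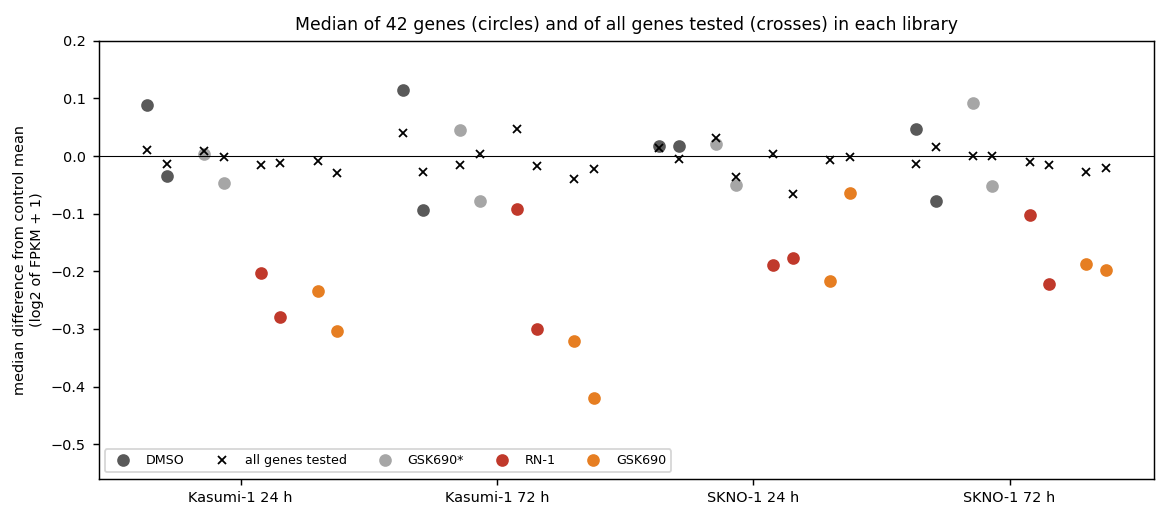
Median difference from the mean of the set's 4 controls (y axis, log2 of FPKM + 1) over the 42 genes (circles, coloured by agent) and over all genes tested (crosses) in each of 32 libraries, by set. Circles of RN-1 and GSK690 lie at -0.06 or lower, and crosses lie between -0.07 and 0.05.

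Each inhibitor was also set against its own control. GSK690 and GSK690* are isomers given at the same 1 µM, and RN-1 was set against the vehicle. With RN-1 against DMSO, 9 members were lower in Kasumi-1 at 24 h and 8 at 72 h (background 3.61% and 4.61%), and 0 in SKNO-1 at either time (background 0.429% and 0.53%). In SKNO-1 11 and 6 of the 42 had an unadjusted p under 0.05 in either direction (limma), beside 1906 of 11888 and 1716 of 11889 genes. With GSK690 against GSK690*, 4 were lower in Kasumi-1 at 24 h and 15 at 72 h (background 1.42% and 3.73%), and 0 in SKNO-1 (background 0.109% and 0.303%). Unadjusted p-values under 0.05 in either direction numbered 4 and 17 of the 42 in SKNO-1 (limma), beside 1338 of 11889 and 1778 of 11890 genes. Changes were below 0 for 38, 39, 38 and 36 of the 42 with RN-1 and for 39, 39, 37 and 40 with GSK690, in Kasumi-1 and then SKNO-1 at 24 and 72 h.

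At 24 h in Kasumi-1 LYAR, UTP15, DKC1 and NOP56 fell with either inhibitor: LYAR by 0.50 with RN-1 and 0.45 with GSK690, and NOP56 by 0.40 and 0.39. At 72 h POLR1A, DKC1, RRP12, NOLC1 and UTP15 did so, POLR1A by 0.68 with RN-1 and 0.44 with GSK690 and RRP12 by 0.50 and 0.63. MYC fell by 0.53 ± 0.14 (SE) with GSK690 against GSK690* in Kasumi-1 at 72 h (limma, adjusted p = 0.0193). These counts rest on 2 libraries a side. For RN-1 at 24 h the 9 became 0 without DMSO replicate 1 or RN-1 replicate 2, 1 without RN-1 replicate 1 and 4 without DMSO replicate 2, and at 72 h the 8 became 0 without DMSO replicate 1 and 5 without RN-1 replicate 2. For GSK690 at 24 h the 4 became 0 without GSK690 replicate 2 or GSK690* replicate 1, 1 without GSK690 replicate 1 and 2 without GSK690* replicate 2. At 72 h the 15 became 1 without GSK690 replicate 2 or GSK690* replicate 1, 8 without GSK690 replicate 1 and 9 without GSK690* replicate 2. In SKNO-1 at 72 h the 0 became 2 for RN-1 without DMSO replicate 2 and 3 for GSK690 without GSK690* replicate 2. With the replicate block RN-1 gave 21, 17, 4 and 1 lower members over the 4 sets (background 9.91%, 9.24%, 4.16% and 2.67%) and GSK690 gave 16, 29, 0 and 6 (background 6.76%, 10.3%, 0.976% and 3.16%).

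The inactive isomer against the vehicle gave 0 members called in each of the 4 sets (background 0.0% in each), with medians of -0.06, -0.02, -0.03 and 0.05. An unadjusted p under 0.05 was met by 0, 0, 0 and 1 members, and by 305, 111, 218 and 268 of all genes tested (limma). RN-1 against GSK690 also gave 0 members in each set (background 0.0%, 0.00841%, 0.0% and 0.0%). Here 1, 6, 1 and 0 members, and 86, 839, 613 and 120 of all genes tested, had an unadjusted p under 0.05 (limma). The 95% interval of such a difference reached a median of 0.25 to either side on the log2 scale, so differences of that size could not be told from none, and the missing calls do not show that the 2 inhibitors act alike. In Kasumi-1 at 72 h the median difference of RN-1 from GSK690 was 0.11, with 7 of 42 below 0 and a lowest adjusted p of 0.676 (limma).

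**Figure D4:**
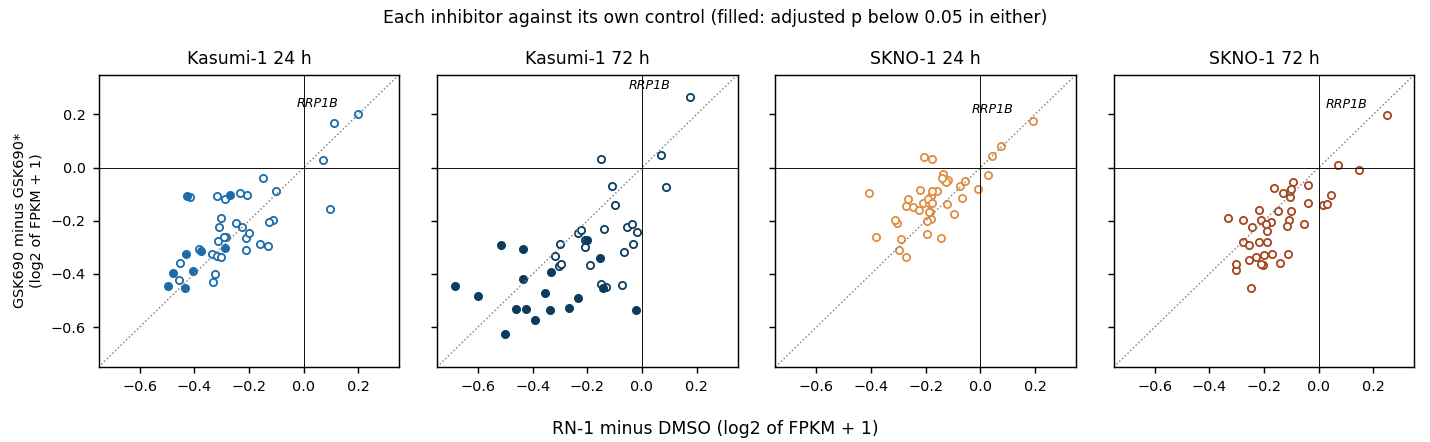
Log2 change with RN-1 against DMSO (x axis) and with GSK690 against GSK690* (y axis) for the 42 genes in 4 sets; filled points have an adjusted p below 0.05 in either comparison, and the dotted line marks equal changes. Most points lie in the lower left, RRP1B is in the upper right of each panel, and filled points appear in Kasumi-1 alone.

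Differences between times and lines in the effect of the inhibitors were tested as limma interaction terms, first without the replicate block. The effect at 72 h minus that at 24 h was called for 0 members in either line (background 0.202% in Kasumi-1 and 0.0% in SKNO-1). An unadjusted p under 0.05 was met by 0 and 0 members, beside 622 of 11885 and 153 of 11887 genes (limma). The effect in Kasumi-1 minus that in SKNO-1 was called for 0 members at 24 h and at 72 h (background 1.12% and 3.47%). For that difference 2 and 5 members had an unadjusted p under 0.05, beside 1182 of 11885 and 1761 of 11886 genes (limma). Between lines 34 of 42 differences at 24 h and 35 at 72 h were below 0, with medians of -0.12 and -0.11, beside -0.0075 and 0.0014 over all genes. NOP56 at 24 h had the lowest adjusted p, with a difference of -0.31 (95% interval -0.49 to -0.12; adjusted p = 0.114), followed by DKC1 at 72 h, -0.21 (-0.36 to -0.05; adjusted p = 0.167). With the replicate block NOP56 and WDR12 passed at 24 h (-0.31 and -0.31; limma, adjusted p = 0.0302 and 0.0325) and DKC1, NOLC1 and WDR12 at 72 h (-0.21, -0.24 and -0.32; adjusted p = 0.0278, 0.0348 and 0.0162), where 4.38% and 8.46% of all genes did. No member passed for the difference between times in that fit. Without RN-1 replicate 2 of SKNO-1 at 24 h, 1 member was called at 24 h.

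In the control libraries NPM1 had the highest level of the 42 in FPKM, which is per length, with a median of 780.2, followed by NOP56 at 308, NCL at 296, FBL at 279 and MYC at 197. UTP15 at 11.7 and UTP20 at 6.18 were lowest. NOP56, NCL and FBL had overlapping ranges over the 16 control libraries (239.9 to 379.95, 245 to 397 and 194 to 407 FPKM). Controls of the 2 lines, which grew in different media and at 72 h partly carried different name prefixes, differed for most members. At 24 h 24 were lower and 8 higher in Kasumi-1 than in SKNO-1, and at 72 h 31 and 7, where 38.2% and 30.9%, and 38.2% and 32.6%, of all genes were lower and higher. NOP2 was lower by 1.44 and 1.27 on the log2 scale, with 16.6 to 24.1 FPKM in Kasumi-1 and 50.7 to 62.4 in SKNO-1, and PPAN by 1.10 and 1.22. WDR12 was higher by 1.52 and 1.41, with 47.8 to 63.4 FPKM in Kasumi-1 against 18.6 to 21.6, while its PeBoW partner PES1 was lower by 0.46 and 0.74. The ranges of NOP2 and WDR12 did not overlap between lines. NOP58 was higher by 0.94 and 0.86 although its C/D partners NOP56 and FBL were lower by 0.50 and 0.51, and by 0.64 and 0.88. MYC differed by -0.17 at 24 h (limma, adjusted p = 0.126) and was lower by 0.66 in Kasumi-1 at 72 h.

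Other lists of ribosome production also held lower genes, mostly in Kasumi-1. Among 39 tested further small subunit factors, 16 and 15 were lower in Kasumi-1 (24 and 72 h) and 0 and 2 in SKNO-1, the order kept below, with TSR1, a late assembly factor, at -0.43 at 24 h and WDR36, of the processome, at -0.54 at 72 h in Kasumi-1. Of 44 large subunit factors 14, 11, 0 and 3 were lower and 1, 2, 0 and 0 higher, EBNA1BP2 falling by 0.41 at 24 h and CCDC86 by 0.48 at 72 h, while FTSJ3, an rRNA methyltransferase, rose by 0.22 and 0.27. Of 29 further factors of RNA polymerase I and snoRNPs 9, 12, 1 and 4 were lower and 1, 2, 0 and 0 higher. The polymerase I subunit CD3EAP fell by 0.44 and 0.55 in Kasumi-1, where POLR1D, a subunit shared with polymerase III, rose by 0.22 and 0.25. Of 14 exosome genes, the RNA-trimming complex, 7, 6, 2 and 0 were lower, with MPHOSPH6 at -0.51 and -0.48 in Kasumi-1. Shares lower were 41%, 38.5%, 0% and 5.13% for the small subunit and 31.8%, 25%, 0% and 6.82% for the large. They were 31%, 41.4%, 3.45% and 13.8% for RNA polymerase I and snoRNPs, and 50%, 42.9%, 14.3% and 0% for the exosome. All genes gave 11.2%, 12.7%, 3.44% and 4.16%. Both subunit lists in SKNO-1 at 24 h, and the exosome there at 72 h, were thus under the background. Of 21 genes of RNA polymerase III 3 (14.3%), 4 (19%), 0 and 0 were lower, beside 11.2%, 12.7%, 3.44% and 4.16% over all genes, and 1 to 2, 2 to 6, 0 to 1 and 0 to 3 as single libraries were left out. As single libraries were left out, lower counts ranged from 4 to 11, 4 to 20, 0 to 3 and 0 to 5 for the small subunit factors, and from 7 to 13, 5 to 18, 0 to 2 and 0 to 4 for the large subunit factors. Those of RNA polymerase I and snoRNPs ranged from 3 to 7, 4 to 13, 0 to 4 and 1 to 7, and of the exosome from 4 to 6, 2 to 8, 0 to 4 and 0 to 5. Medians of these lists were below 0 in each set, from -0.25 to -0.01, beside -0.01 to -0.02 over all genes; that of polymerase III in SKNO-1 at 24 h turned to 0.01 with scaling by the median of ratios and to 0.03 with quantile normalization.

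Of the MYC targets outside ribosome assembly some fell: 20 of 32 tested at 24 h and 13 of 33 at 72 h in Kasumi-1, and 4 and 2 of 33 in SKNO-1, with 1 higher (PKM, 0.19, in Kasumi-1 at 72 h). The shares lower were 62.5%, 39.4%, 12.1% and 6.06%, beside 11.2%, 12.7%, 3.44% and 4.16% of all genes, so that SKNO-1 at 72 h was near the background. NME1, a nucleoside diphosphate kinase, fell by 0.57 and 0.47 in Kasumi-1, ODC1, of polyamine synthesis, by 0.54 at 72 h, and the mitochondrial chaperone HSPD1 by 0.27 and 0.25 in SKNO-1. As single libraries were left out the counts ranged from 7 to 20, 5 to 15, 0 to 5 and 0 to 4, and with scaling by the median of ratios those of SKNO-1 were 0 and 0. Of 10 tested MYC network partners, such as MAX and MXD1, 0, 1, 0 and 0 were lower and 1, 1, 0 and 0 higher. In Kasumi-1 the 10% higher at each time was close to or under the 9.69% and 13.0% of all genes. The 10% lower at 72 h was under 12.7%. MYCN rose in Kasumi-1, from 1.68 to 2.13 FPKM at 24 h and from 1.06 to 1.71 at 72 h, and MGA fell by 0.40 there at 72 h. Of 36 translation initiation factors 11, 6, 1 and 1 were lower (30.6%, 16.7%, 2.78% and 2.78%) and 2, 3, 1 and 0 higher, where 11.2%, 12.7%, 3.44% and 4.16% of all genes were lower. The shares higher, 5.56%, 8.33%, 2.78% and 0%, were under the 9.69%, 13.0%, 5.64% and 6.91% of all genes. The lower counts ranged from 6 to 10, 2 to 9, 0 to 1 and 0 to 3 as single libraries were left out. EIF5A fell by 0.41 and 0.33 in Kasumi-1, where EIF3E rose by 0.23 and 0.27.

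Among ribosomal protein genes every call was higher. Of 47 for the large subunit 0 were lower in any set and 4, 11, 19 and 0 were higher, and of 33 for the small subunit 0 were lower and 0, 7, 7 and 0 higher. The shares higher were 8.51%, 23.4%, 40.4% and 0% for the large subunit and 0%, 21.2%, 21.2% and 0% for the small one, against 9.69%, 13.0%, 5.64% and 6.91% of all genes, so that Kasumi-1 at 24 h and SKNO-1 at 72 h were under the background. RPL3 rose from 1023 to 1239 FPKM in Kasumi-1 at 24 h, RPS12 from 476 to 574 there at 72 h, and RPL10A from 282 to 353 in SKNO-1 at 24 h. Medians of the large subunit genes were 0.10, 0.17, 0.23 and 0.05, and of the small subunit genes 0.10, 0.16, 0.20 and 0.03. They stayed above 0 with quantile normalization (0.06, 0.13, 0.09 and 0.07, and 0.05, 0.08, 0.09 and 0.04) and with the median of ratios. As single libraries were left out, higher large subunit genes ranged from 0 to 3, 2 to 22, 2 to 32 and 0 to 0 over the 4 sets, and small subunit genes from 2 to 19 in Kasumi-1 at 72 h and from 0 to 21 in SKNO-1 at 24 h. Ribosomal protein genes have many pseudogenes, so their levels are uncertain.

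**Figure D5:**
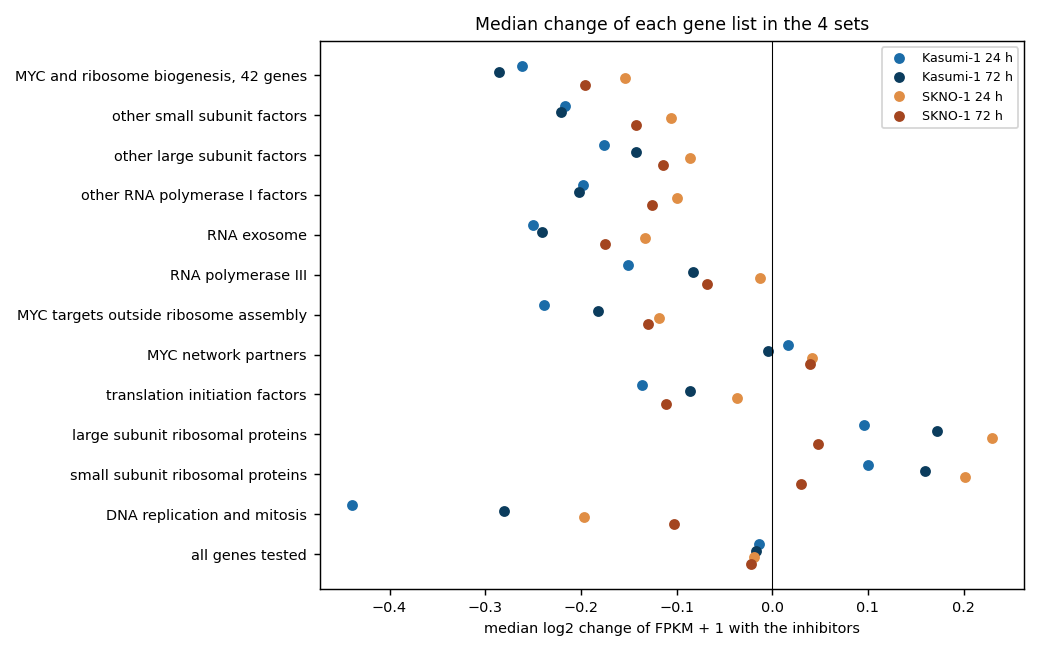
Median log2 change of FPKM + 1 with the inhibitors (x axis) in each gene list and over all genes tested (y axis), with 1 point per set of line and time. The 42 genes and other assembly lists lie left of 0, both lists of ribosomal proteins right of 0, and all genes tested within -0.02 of 0.

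Genes of DNA replication and mitosis were lower too in Kasumi-1 and, in part, in SKNO-1 at 24 h. Of 32, 30 were lower in Kasumi-1 at 24 h, 22 at 72 h, 7 in SKNO-1 at 24 h and 1 at 72 h. These shares were 93.8%, 68.8%, 21.9% and 3.12%, beside 11.2%, 12.7%, 3.44% and 4.16% of all genes, so that SKNO-1 at 72 h was under the background. MCM10, a replication initiation factor, was at -0.67 at 24 h in Kasumi-1 and MCM6, of the replicative helicase, at -0.32 at 72 h in SKNO-1. Their summed FPKM ran from 1516 to 1823 in controls and 1144 to 1289.97 with inhibitors in Kasumi-1 at 24 h, from 1949 to 2056 and 1553 to 1723 at 72 h, from 1733 to 1894 and 1515 to 1706 in SKNO-1 at 24 h, and from 1954 to 2239 and 1811 to 2124 at 72 h. The sides were apart in all sets but SKNO-1 at 72 h. As single libraries were left out the counts ranged from 25 to 28, 12 to 19, 0 to 8 and 0 to 6. Monocyte and macrophage markers moved with the inhibitors as well: of 11 tested (18 listed) 8, 8, 7 and 7 were higher and 1, 0, 0 and 0 lower. Of all genes 9.69%, 13.0%, 5.64% and 6.91% were higher. LYZ, lysozyme, rose from 15.4 to 122 FPKM and LY96, a partner of Toll-like receptor signalling, from 0.0586 to 7.44 in Kasumi-1 at 24 h, and CD86, a costimulatory ligand, from 0.995 to 5.72 in SKNO-1 at 24 h. Summed over the 18, FPKM ran from 73.2 to 107 in controls and 233 to 281 with inhibitors in Kasumi-1 at 24 h, from 76.0 to 98.9 and 182 to 244 at 72 h, from 77.1 to 115 and 163 to 234 in SKNO-1 at 24 h, and from 97.8 to 125 and 222 to 266 at 72 h. CD14, FCGR3A, CD163, FCN1 and S100A8 were at most 0.385 FPKM in any library, whereas others of the list reached more: CTSS 72.0, FCGR1A 37.0, CD68 30.7, CSF1R 12.6 and ITGAM 4.63. Of the 6 blast markers (RUNX1T1, RUNX1, KIT, CD34, MPO and CD33), 2 were higher in each set, CD34 and CD33, and 1, 1, 1 and 0 lower, KIT. The progenitor marker CD34 rose by 0.73 and 1.41 on the log2 scale in Kasumi-1, and by 1.02 and 1.53 from low levels in SKNO-1. The part of proliferation or maturation in the changes of the 42 genes was not tested.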

How the data were processed

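RNA of 32 libraries was sequenced, and the authors deposited FPKM per gene, made with TopHat 1.4.1 and Cufflinks on hg19 per the submitters' processing notes. Read counts were not used here, so no count model was run and depth is unknown. FPKM scales by library total, so a change in total RNA per cell would not show.

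The 11890 of 23073 genes that reached 1 FPKM in 2 or more libraries were analysed as log2(FPKM + 1), which understates changes of low genes. limma 3.58.1 in R 4.3.3 fitted 16 group means to all libraries (16 residual degrees of freedom, trended variance). RN-1 and GSK690 were averaged against DMSO and GSK690* in each set, and p-values were Benjamini-Hochberg adjusted over all genes per contrast at a threshold of 0.05. The fit was tested on simulated data. Samples were grouped by the labels' titles. Differences of replicate 1 from replicate 2 correlated above 0 in all 24 pairs of groups within a set (r 0.0431 to 0.697), and above 0.1 in 22 of them, the exceptions being in Kasumi-1 at 72 h; values with a replicate block are given where they change a call or a count.

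The members and lists were chosen with earlier results of these data known. MYC, the 6 lowest and 3 highest members by mean change over the sets, and the lowest and highest of each role have values per library; other lists name up to 2 genes per set and direction with the largest change. Alternatives were another pseudocount (0.1), no filter, 2 scalings, other fits and each library left out. Tables used Python 3.11.15 and pandas 2.3.3, and promoters came from RefSeq.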

Additional observations from a re-analysis of the deposited data

How the results depend on the processing

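Of the 65 calls of single members, 26 were kept under every alternative run (9 and 17 in Kasumi-1, 24 then 72 h, and 0 and 0 in SKNO-1), and 0 changed direction. With each library left out in turn, members lower with the inhibitors numbered 13 to 21, 18 to 32, 0 to 8 and 1 to 15, and members higher 0 to 1 in each set. In the same fits RN-1 against DMSO gave 0 to 4 and 0 to 11 members in Kasumi-1 and 0 and 0 to 2 in SKNO-1, GSK690 against GSK690* gave 0 to 2, 1 to 9, 0 and 0 to 3, and the difference between lines at 24 h gave 0 to 1. In SKNO-1 at 24 h the 5 lower members became 3 with 2 groups of 4 libraries, 1 with the 8 libraries of the set alone, 0 without GSK690* among the controls, 3 with the median of ratios, 3 with no filter on low values and 2 with quantile normalization. At 72 h the 7 became 4 with 2 groups of 4, 0 with the set alone and 1 without GSK690*. Members higher became 0 at 72 h in SKNO-1 with 2 groups of 4. They became 0 with the set alone in Kasumi-1 and SKNO-1 at 72 h, and 0 without GSK690* in the 3 sets with 1. Quantile normalization gave 2 in Kasumi-1 at 24 h and 1 in SKNO-1 at 24 h, and the median of ratios gave 1 in the latter. With the set alone, RN-1 against DMSO gave 18 (24 h) and 1 (72 h) in Kasumi-1, and GSK690 against GSK690* gave 7 and 2. Quantile normalization gave 1 for GSK690 against GSK690* in Kasumi-1 at 24 h and 1 for the difference between lines at 72 h. In SKNO-1 at 72 h GSK690 against GSK690* gave 1 with no filter and 1 with a term for the library name prefix. Shares over all genes under each alternative are not set beside these counts. The cause of these moves was not tested.

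Replicate numbers are shared between groups, and the labels do not say what a number marks. With the replicate block, lower members in SKNO-1 numbered 12 and 20 and higher ones at 24 h 1. With this replicate block RN-1 against DMSO gave 21, 17, 4 and 1 over the 4 sets, GSK690 against GSK690* gave 16 and 29 in Kasumi-1 and 6 in the later SKNO-1 set, and the difference between lines gave 2 and 3. Members with a change below 0 stayed at 36 or more of 42 under either scaling. With 2 libraries a group and unknown depth, differences under about 0.25 on the log2 scale between single agents could not be resolved.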
